A study of Rattus norvegicus with 11 samples.

Results

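The genes of 9 proteins from ion channel families were followed in cultured rat dorsal root ganglion (DRG) neurons. Some members of these families turn heat, cold, irritants or mechanical force into current. That role is not established in sensory neurons for each of the 9. The 9 genes were chosen by name, for the known roles of their proteins, but with earlier results of these data known. The set comprised the transient receptor potential (TRP) channel genes Trpv1, Trpv2, Trpa1, Trpm3 and Trpm8, the Piezo genes Piezo1 and Piezo2, and the anoctamin genes Ano1 and Ano3. All 9 had a row among the 22076 genes with values. RNA was sequenced from 11 cultures, of which 4 received Schwann cell conditioned medium (SCCM), 4 received 1 µM prostaglandin E2 (PGE2) and 3 were untreated. All cultures were wild type Sprague-Dawley neurons purified by immunopanning from ganglia of embryonic day 15, treated cultures were exposed overnight from day 13 in vitro, and RNA of every culture was taken on day 14. Each culture pooled the 10 to 18 embryos of 1 pregnant rat, which the submitters counted as 1 biological replicate, and the p-values given here speak to variation among pools of this kind. Levels are in FPKM, fragments per kilobase of transcript scaled to the mapped fragments of the library, so levels of different genes are compared per length.

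In the ganglion, TRPV1 is the capsaicin receptor and a channel opened by noxious heat, TRPM3 and TRPA1 contribute to noxious heat sensing in mice beside it, TRPA1 detects irritants such as mustard oil, and TRPM8 detects cool temperatures and menthol. PIEZO2 is the main force-gated channel of light touch and proprioception, whereas PIEZO1 is best known from blood vessels and red blood cells. ANO1 is a calcium-activated chloride channel of heat-sensitive nociceptors, ANO3 has been described in rat nociceptors as a modulator of a sodium-activated potassium channel, and TRPV2 opens at very high temperatures when expressed in cell lines. PGE2 is a classical inflammatory mediator that makes nociceptors, including their TRPV1 channels, more responsive.

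Libraries of 1 treatment differed widely, and this bears on every comparison of the channel genes. On the first principal component of the tested genes other than the 9 channels (56% of variance), SCCM replicates 2 and 3 and PGE2 replicates 3 and 4 scored 39.99 to 55.7. The other 7 libraries scored from −60.7 to 7.64, and the 3 untreated libraries, SCCM replicate 1 and PGE2 replicates 1 and 2 were all below 0. The same 4 libraries held the highest levels of Scn10a, a sodium channel gene of nociceptors (72.8 to 101.2 FPKM, against 12.1 to 62.4 FPKM in the other 7), and of Nefh, a heavy neurofilament gene (93.9 to 145.3 against 7.81 to 56.1 FPKM). Relative sequencing depth was estimated from the most common ratio of low FPKM values of rarely detected genes between 2 libraries. It came out 1.34-fold higher in the deepest library than in the shallowest. This figure is approximate, since 148 of 165 library trios gave coherent estimates to 0.1 log2 units and the largest discrepancy was 0.61. The search within each pair was limited to small ratios, so larger differences in depth could have been missed. The neuronal tubulin gene Tubb3 lay between 828 and 1659 FPKM. The glial gene Sox10 did not pass 0.07 FPKM in any library, and Gfap was listed at 0 in all.

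The 9 genes fell into 2 tiers. Trpv2, Ano3, Piezo2 and Trpm3 averaged 32.1, 16.9, 16.4 and 15.03 FPKM over the 11 libraries and were at or above 1 FPKM in all of them. Trpv1, Trpm8, Piezo1, Ano1 and Trpa1 averaged 0.953, 0.694, 0.343, 0.107 and 0.0091 FPKM. In every group, the lowest library of the last-ranked upper-tier gene lay above the highest library of the next gene down. Trpv2 led in 10 of the 11 libraries, and its share of the summed FPKM of the 9 channels ranged from 16.4% in PGE2 replicate 4, where Ano3 led and Trpv2 ranked 4, to 61.6% in PGE2 replicate 1. Within the upper tier, Ano3, Piezo2 and Trpm3 exchanged order between libraries, and neighbours among these 3 were not separated in any group.

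Piezo2, the gene of the touch and proprioception channel, had 8.1, 29.39, 31.82 and 14.93 FPKM in SCCM replicates 1 to 4, 7.25, 9.78, 29.7 and 28.27 FPKM in PGE2 replicates 1 to 4, and 9, 8.28 and 3.77 FPKM in untreated replicates 1 to 3. SCCM replicates 2 and 3 and PGE2 replicates 3 and 4 were high, SCCM replicate 4 was intermediate, and each treated group overlapped the untreated range. In these bulk libraries, fewer cells of a type and less RNA per cell cannot be told apart. Means were 21.1 ± 11.4 FPKM with SCCM (SD, n = 4), 18.75 ± 11.9 FPKM with PGE2 (SD, n = 4) and 7.02 ± 2.83 FPKM in untreated cultures (SD, n = 3). In limma's fit of all genes on log2(FPKM + 1), the change was 1.36 for SCCM minus untreated (SE 0.56, 95% interval 0.13 to 2.58, adjusted p = 0.357) and 1.14 for PGE2 minus untreated (SE 0.56, interval −0.088 to 2.37, adjusted p = 0.538). The paralog Piezo1 ran the other way, with 0.58, 0.1, 0.09 and 0.26 FPKM with SCCM, 0.29, 0.61, 0.14 and 0.11 FPKM with PGE2 and 0.57, 0.71 and 0.31 FPKM untreated. The 4 libraries with the most Piezo2 had the least Piezo1 (0.09 to 0.14 FPKM, against 0.26 to 0.71 FPKM in the other 7). Differences in mean Piezo1 were −0.273 FPKM for SCCM minus untreated (two-sided exact permutation p = 0.143) and −0.243 FPKM for PGE2 minus untreated (exact p = 0.229). They shrank to −0.11 and −0.08 FPKM without the 4 libraries that stand apart, and PGE2 minus untreated was −0.1525 FPKM without untreated replicate 2. Cd68, a lysosomal gene listed as a macrophage marker, ran with Piezo1, at 0.04 to 0.09 FPKM in the 4 libraries and 0.37 to 45.11 FPKM in the other 7. Its log2 change was −2.85 for SCCM minus untreated (limma adjusted p = 0.357) and −2.49 for PGE2 minus untreated (adjusted p = 0.538), and its part in the channel differences was not tested.

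Trpm3, a heat-activated TRP channel gene, had 9.56, 25.46, 27.94 and 10.34 FPKM in SCCM replicates 1 to 4, 4.48, 5.55, 24.87 and 36.99 FPKM in PGE2 replicates 1 to 4, and 10.13, 7.66 and 2.31 FPKM in untreated replicates 1 to 3. The high values sat in the same 4 libraries as those of Piezo2, and untreated replicate 1 lay above SCCM replicate 1 and PGE2 replicates 1 and 2. Means were 18.3 ± 9.73 FPKM with SCCM (SD, n = 4), 17.97 ± 15.8 FPKM with PGE2 (SD, n = 4) and 6.70 ± 3.997 FPKM in untreated cultures (SD, n = 3). Limma gave log2 changes of 1.35 for SCCM minus untreated (SE 0.71, interval −0.20 to 2.90, adjusted p = 0.362) and 1.00 for PGE2 minus untreated (SE 0.71, interval −0.54 to 2.55, adjusted p = 0.539).

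Ano3 had 9.25, 25.88, 27.98 and 8.97 FPKM in SCCM replicates 1 to 4, 5.45, 6.11, 32.58 and 45.91 FPKM in PGE2 replicates 1 to 4, and 12.55, 7.18 and 3.53 FPKM in untreated replicates 1 to 3. PGE2 replicate 4 was the highest library, and untreated replicate 1 lay above the 2 lower libraries of each treatment. Means were 18.02 ± 10.3 FPKM with SCCM (SD, n = 4), 22.5 ± 20.1 FPKM with PGE2 (SD, n = 4) and 7.75 ± 4.54 FPKM in untreated cultures (SD, n = 3). The log2 change by limma was 1.08 for SCCM minus untreated (SE 0.73, interval −0.52 to 2.68, adjusted p = 0.420) and 1.04 for PGE2 minus untreated (SE 0.73, interval −0.55 to 2.64, adjusted p = 0.539). Without the 4 libraries that stand apart, chosen after seeing the data, PGE2 minus untreated turned to −0.23 for Ano3 and −0.19 for Trpm3 and stood at 0.31 for Piezo2, while SCCM minus untreated stood at 0.35, 0.68 and 0.66. Without untreated replicate 3, the lowest library for all 3 genes, SCCM minus untreated was 0.67 for Ano3, 0.83 for Trpm3 and 1.02 for Piezo2, and PGE2 minus untreated was 0.64, 0.48 and 0.80.

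Trpv2, the most abundant of the channel transcripts, did not follow this split. It had 43.23, 41.85, 34.35 and 30.82 FPKM in SCCM replicates 1 to 4, 29.38, 28.48, 38.64 and 22.19 FPKM in PGE2 replicates 1 to 4, and 40.95, 28.66 and 15.03 FPKM in untreated replicates 1 to 3. Untreated replicate 3 was the lowest of all libraries, untreated replicate 1 lay above 2 of the 4 SCCM libraries, and the groups overlapped. Means were 37.6 ± 5.95 FPKM with SCCM (SD, n = 4), 29.7 ± 6.78 FPKM with PGE2 (SD, n = 4) and 28.2 ± 12.97 FPKM in untreated cultures (SD, n = 3). The limma log2 change was 0.49 for SCCM minus untreated (SE 0.30, interval −0.16 to 1.15, adjusted p = 0.389) and 0.15 for PGE2 minus untreated (SE 0.30, interval −0.50 to 0.81, adjusted p = 0.799). Without untreated replicate 3 these became 0.12 and −0.23.

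**Figure D1:**
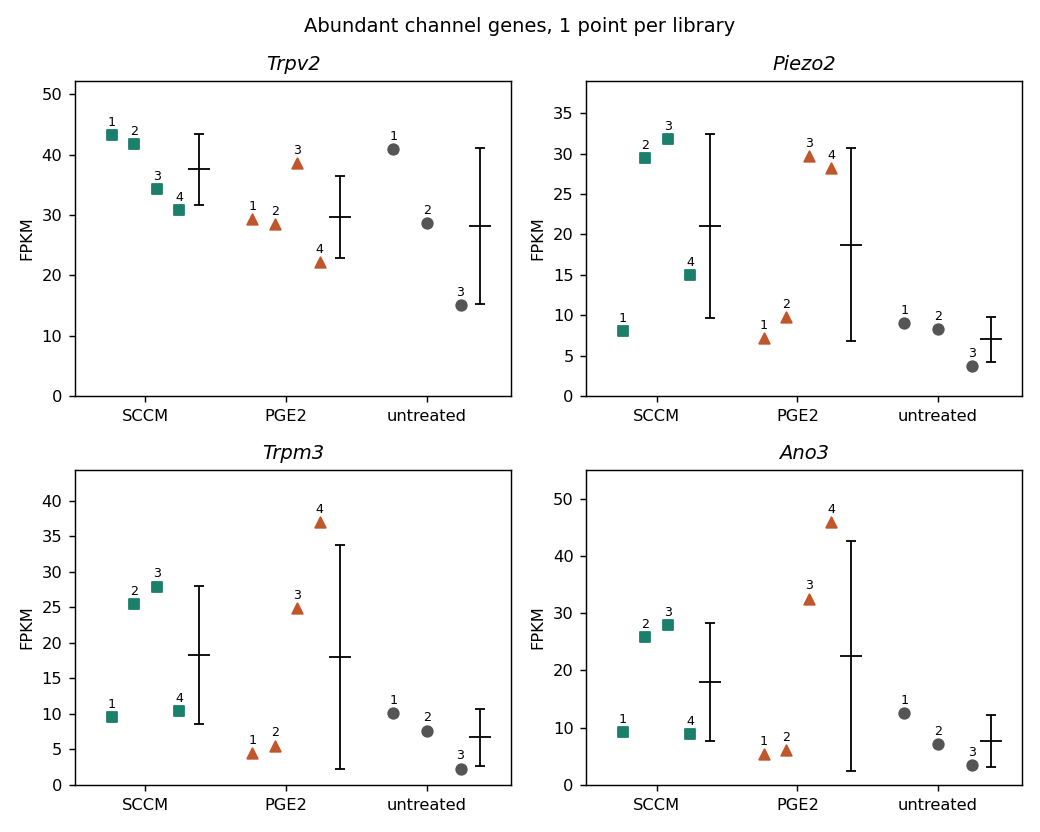
FPKM of Trpv2, Piezo2, Trpm3 and Ano3 in each library, with SCCM (squares), PGE2 (triangles) and untreated (circles) from left to right, replicate numbers above the points, and the mean ± SD of each group as a bar. SCCM replicates 2 and 3 and PGE2 replicates 3 and 4 are high for Piezo2 (28.27 to 31.82 FPKM), Trpm3 (24.87 to 36.99 FPKM) and Ano3 (25.88 to 45.91 FPKM), and not for Trpv2.

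Read against all genes, 0 of the 4 channel genes of the upper tier were called for SCCM minus untreated at a limma adjusted p under 0.05, where 0% of 12107 tested genes were. Piezo2 alone had an unadjusted p under 0.05, 1 of 4 against 13.6% of tested genes. For PGE2 minus untreated 0 of 4 were called (0% of tested genes), and 0 of 4 had an unadjusted p under 0.05 (5.72%). These shares of all genes depend on single libraries, since leaving out 1 library gave 401 to 3060 genes with an unadjusted p under 0.05 for SCCM minus untreated and 185 to 2301 for PGE2 minus untreated. Log2 changes of at least 1 upwards (on the FPKM + 1 scale) were found for 3 of 4 in SCCM minus untreated (1.40% of tested genes) and for the same 3, Piezo2, Trpm3 and Ano3, in PGE2 minus untreated (0.479%). Without untreated replicate 3 these counts were 1 of 4 and 0 of 4, with SCCM replicate 2 or 3 left out the count for SCCM was 2 of 4, and with PGE2 replicate 3 or 4 left out that for PGE2 was 0 of 4. With the 4 libraries that stand apart left out together both counts were 0 of 4, and with the replicate number as a block they were 2 of 4 and 1 of 4. Means of log2(FPKM + 1), the scale of every count of higher means given here, were higher for 4 of 4 in both. The shares of tested genes were 38.7% for SCCM minus untreated and 32.9% for PGE2 minus untreated. For PGE2 minus untreated the count was 3 of 4 without untreated replicate 3 and 2 of 4 without the 4 libraries that stand apart. The 2 comparisons share the untreated libraries. Piezo2, Trpm3 and Ano3 also varied together over the 11 libraries (Pearson's r of 0.93 to 0.98 in pairs), so they do not count as 3 separate genes against these shares. The 9 channels were chosen with earlier results of these data known. The median change was 1.21 over the 4 channel genes and −0.13 over all tested genes for SCCM minus untreated, and 1.02 and −0.16 for PGE2 minus untreated. With median-ratio scaling, which moved the median of all genes to −0.0016 and −0.0033, 4 of 4 were again higher in both, against 49.9% and 49.6% of tested genes. No gene of the 4 had groups that did not overlap, against 10.6% of tested genes for SCCM minus untreated and 5.33% for PGE2 minus untreated. The precision was low for the 3 most variable genes: their SD of log2(FPKM + 1) over the 11 libraries was 1.12 for Trpm3, 1.12 for Ano3 and 0.96 for Piezo2, at percentiles 97.9, 97.8 and 96.3 of tested genes, whereas that of Trpv2 was 0.44, at percentile 63.6.

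SCCM and PGE2 were also compared directly, which sets the conditioned medium against a single mediator. Limma's log2 changes for SCCM minus PGE2 were 0.34 for Trpv2 (interval −0.26 to 0.95), 0.34 for Trpm3 (−1.09 to 1.78), 0.21 for Piezo2 (−0.92 to 1.35) and 0.035 for Ano3 (−1.44 to 1.51), each with adjusted p = 0.99995. The intervals of the last 3 reach beyond a change of 0.9 in either direction, so changes of that size were not excluded. Of the 4 genes, 0 were called (0.00826% of tested genes) and 0 had an unadjusted p under 0.05 (3.28%). A log2 change of at least 1 upwards was found for 0 (0.661%), and 0 had groups that did not overlap (2.21%). The mean FPKM of Ano3 was lower with SCCM than with PGE2 (18.02 against 22.5). On the log2(FPKM + 1) scale, 4 of 4 had higher means in SCCM (53.4% of tested genes). That direction rested on single libraries for 3 of the 4: without PGE2 replicate 1 the change was −0.41 for Ano3, −0.13 for Piezo2 and −0.096 for Trpm3. It was also below 0 without PGE2 replicate 2 for Ano3 (−0.37) and Trpm3 (−0.010), without SCCM replicate 3 for Ano3 (−0.23) and Piezo2 (−0.037), and for Ano3 without SCCM replicate 2 (−0.19) or under quantile normalization (−0.0030).

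**Figure D2:**
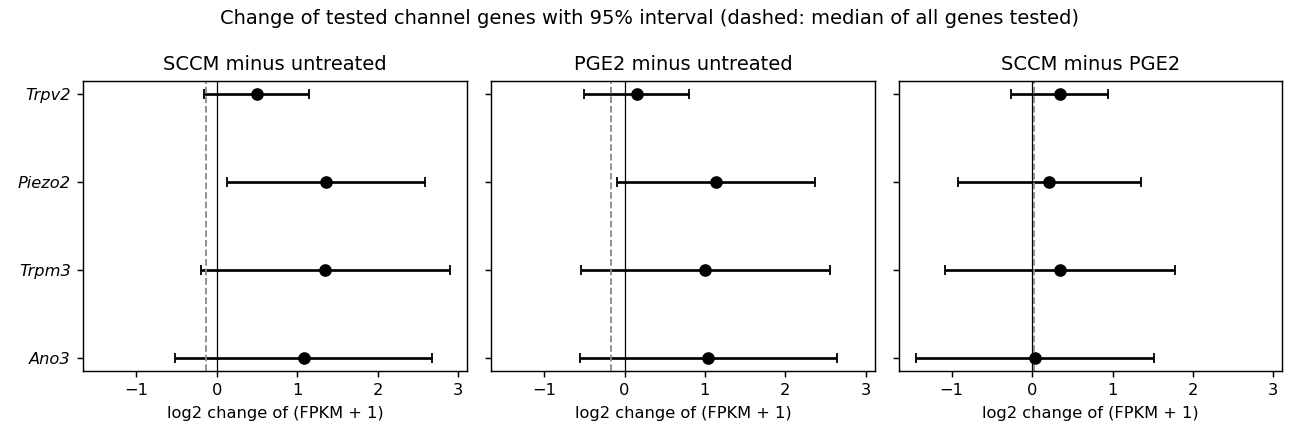
Log2 change of (FPKM + 1) for the 4 tested channel genes in each comparison, with points for limma's estimate, bars for its 95% interval, a solid line at 0 and a dashed line at the median of all tested genes. Of the 12 intervals, that of Piezo2 for SCCM minus untreated (0.13 to 2.58) alone lies above 0, and its adjusted p was 0.357.

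Trpm3 and Ano3 kept close to a fixed ratio while each varied widely. Trpm3 spanned 16.01-fold and Ano3 13.01-fold over the libraries, yet the ratio of Ano3 to Trpm3 ran only between 0.868 and 1.53, a 1.76-fold range. The ratio of Trpm3 to Piezo2 spanned 2.31-fold (0.568 to 1.31) and that of Ano3 to Piezo2 2.70-fold, whereas the ratio of Trpm3 to Trpv2 spanned 10.9-fold (0.153 to 1.67). Ratios within a library do not depend on its depth or scaling. Over the 11 libraries, Pearson's r of log2(FPKM + 1) was 0.98 (Spearman's rho 0.95) for Trpm3 with Ano3, 0.95 (0.87) for Trpm3 with Piezo2 and 0.93 (0.82) for Ano3 with Piezo2, and between 0.37 and 0.45 for Trpv2 with each of them. Leaving out the 2 libraries farthest from the median of Trpm3, r was 0.98 with Ano3 and 0.94 with Piezo2. The libraries fall into separate sets, so these values mix the step between the sets with the variation inside them. Within the 7 libraries outside SCCM replicates 2 and 3 and PGE2 replicates 3 and 4, r was 0.95 for Trpm3 with Ano3 (rho 0.89), 0.82 for Trpm3 with Piezo2 (rho 0.75) and 0.70 for Ano3 with Piezo2 (rho 0.54). Trpv2 also followed Trpm3 (r = 0.88, rho 0.75) and Ano3 (r = 0.90, rho 0.86) among these 7, but Piezo2 less closely (r = 0.65, rho 0.25). It reached its lowest level together with them in untreated replicate 3, and departed from them in the 4 libraries that stand apart. These are descriptions over libraries that share treatments, chosen in part after seeing the data, and no test was made of them.

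**Figure D3:**
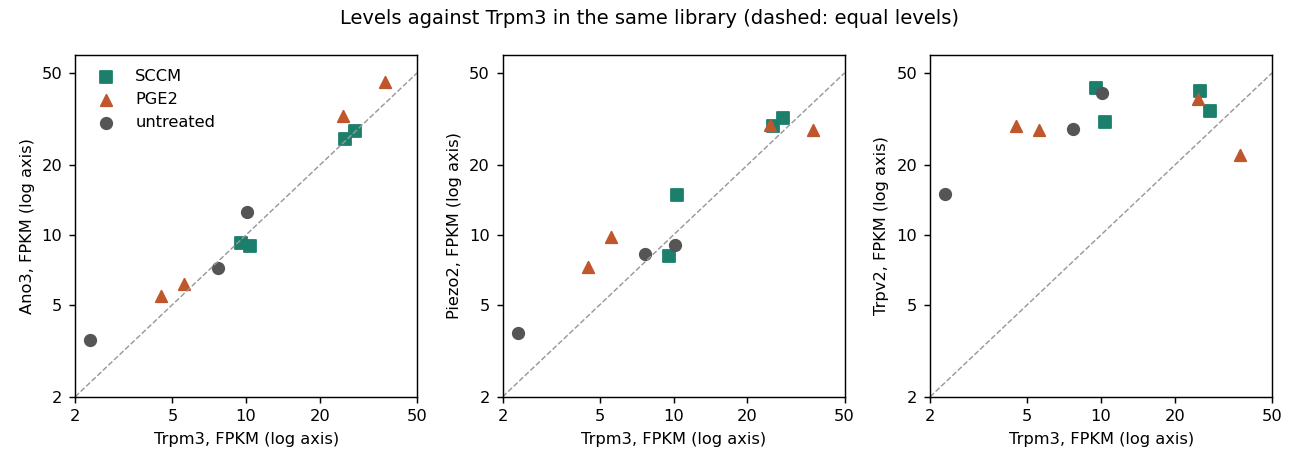
FPKM of Ano3, Piezo2 and Trpv2 against FPKM of Trpm3 in the same library, on log axes, with SCCM as squares, PGE2 as triangles, untreated as circles and a dashed line at equal levels. Ano3 follows the line of equal levels over the whole range (ratio 0.868 to 1.53), whereas Trpv2 levels off, with 22.19 to 41.85 FPKM in the 4 libraries with the most Trpm3.

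The genes most like each channel gene were taken as the 3 with the highest Pearson's r over the 11 libraries among 8570 other genes averaging 5 FPKM or more. For Trpm3 they were Cacnb4, a calcium channel beta subunit gene (r = 0.98, rho = 0.95), Cyp4x1 (0.98, 0.95) and Scn7a, which encodes an atypical sodium channel (0.98, 0.95). For Ano3 they were Scn7a (0.99, 0.97), AC125757.1 (0.99, 0.98) and Cyp4x1 (0.98, 0.98). Scn7a and Cyp4x1 thus stood on both lists, and Scn7a itself ranged from 13.9 to 80.05 FPKM. For Piezo2 they were Tspyl4 (0.99, 0.98), Ppp2r2b, a phosphatase regulatory subunit gene (0.98, 0.81), and Cacna1a, the pore subunit gene of P/Q-type calcium channels (0.98, 0.93). For Trpv2 they were Dolk, a dolichol kinase gene (0.97, 0.95), Dffa, which encodes an inhibitor of an apoptotic nuclease (0.96, 0.85), and Gipc1, a trafficking adaptor gene (0.96, 0.88). An r above 0.9 was reached by 222 of the screened genes for Trpm3, 237 for Piezo2 and 184 for Ano3, but by 19 for Trpv2.

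The 3 variable channels were also set against the first principal component. Pearson's r with its score was 0.95 for Trpm3, 0.96 for Piezo2 and 0.95 for Ano3 (rho 0.94, 0.83 and 0.87) and 0.37 for Trpv2 (rho 0.30). No range of the 4 libraries at its positive end overlapped that of the other 7 for Trpm3 (24.87 to 36.99 against 2.31 to 10.34 FPKM), Piezo2 (28.27 to 31.82 against 3.77 to 14.93 FPKM), Ano3 (25.88 to 45.91 against 3.53 to 12.55 FPKM) or Piezo1. These 4 libraries were picked by their place on a component built from all other tested genes. The share of tested genes that separate in the same way was not computed, so the separation is not read as particular to these channels. The mitochondrial share of FPKM was 8.07 and 3.71% in SCCM replicates 2 and 3 and 7.86 and 8.14% in PGE2 replicates 3 and 4, against 3.20 to 10.9% in the other 7 libraries. Summed FPKM of 8 sensory neuron markers was 5051 to 6932 with SCCM, 5212 to 6893 with PGE2 and 4149 to 6587 untreated, and that of 12 nociceptor markers was 489.4 to 726.3 with SCCM, 448.7 to 672.5 with PGE2 and 275.6 to 461.5 untreated. The part of this component in the treatment comparisons was not tested.

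**Figure D4:**
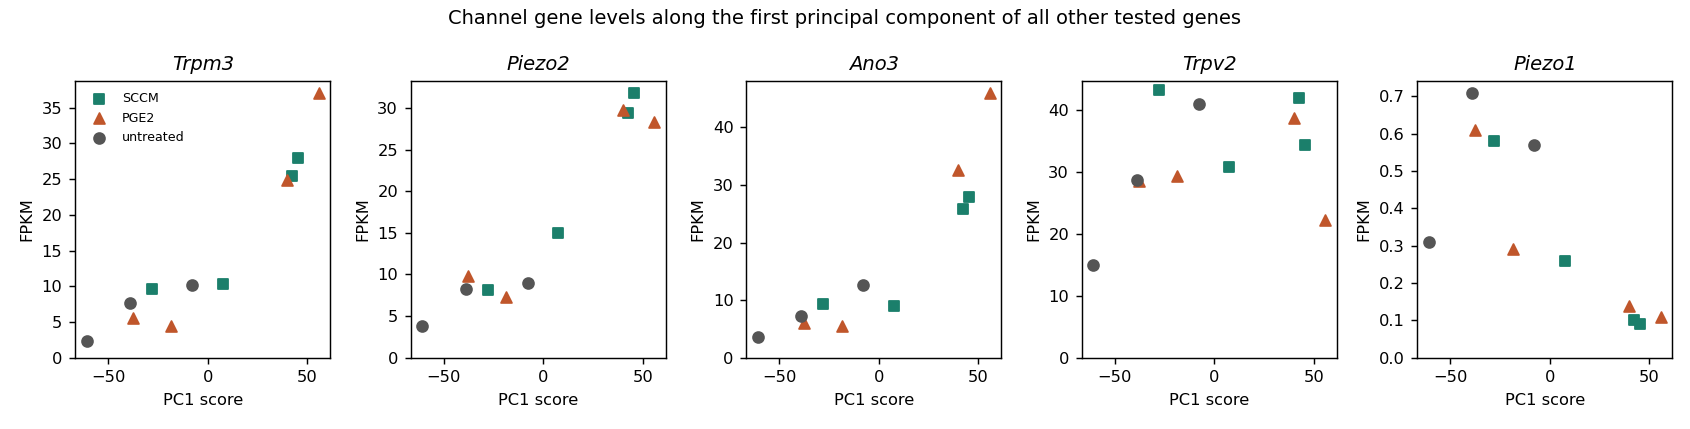
FPKM of 5 channel genes against the score of each library on the first principal component of the other tested genes, with SCCM as squares, PGE2 as triangles and untreated as circles. Trpm3, Piezo2 and Ano3 are high and Piezo1 is low (0.09 to 0.14 FPKM) in the 4 libraries at the positive end, which hold both treatments, and Trpv2 (22.19 to 41.85 FPKM in these 4) shows no such split.

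Start-site sequence is shown for these 4 transcripts because 3 of them were high together in the 4 libraries that stand apart and Trpv2 was not. The 250 bases before the start most upstream in RefSeq (assembly GRCr8, not the authors' build) are given 5′ to 3′ on the gene's own strand, with capitals marking motif matches:
Trpm3, chr1:229099491-229099740, plus strand: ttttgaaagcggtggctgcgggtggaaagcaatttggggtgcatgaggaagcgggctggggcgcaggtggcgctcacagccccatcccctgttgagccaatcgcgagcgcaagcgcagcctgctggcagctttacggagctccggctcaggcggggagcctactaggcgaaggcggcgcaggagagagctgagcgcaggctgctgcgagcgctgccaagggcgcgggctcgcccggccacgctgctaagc
Ano3, chr3:118004696-118004945, minus strand: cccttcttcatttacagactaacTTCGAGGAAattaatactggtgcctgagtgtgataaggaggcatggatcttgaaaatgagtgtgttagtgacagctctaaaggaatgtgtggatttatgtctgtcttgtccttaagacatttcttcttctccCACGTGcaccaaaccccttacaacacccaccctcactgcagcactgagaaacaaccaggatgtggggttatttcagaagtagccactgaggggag
Piezo2, chr18:59115216-59115465, minus strand: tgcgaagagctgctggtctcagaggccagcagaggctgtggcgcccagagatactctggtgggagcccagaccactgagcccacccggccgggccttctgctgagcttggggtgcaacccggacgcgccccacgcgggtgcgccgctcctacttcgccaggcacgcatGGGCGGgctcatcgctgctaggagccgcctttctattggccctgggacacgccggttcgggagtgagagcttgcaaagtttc
Trpv2, chr10:47771973-47772222, plus strand: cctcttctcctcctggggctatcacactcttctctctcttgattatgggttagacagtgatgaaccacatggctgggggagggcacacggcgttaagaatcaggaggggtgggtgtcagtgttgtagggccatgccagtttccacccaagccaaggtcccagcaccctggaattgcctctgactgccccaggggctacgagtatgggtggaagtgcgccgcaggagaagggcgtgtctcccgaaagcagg
Windows were available for 7 of the 9 genes, 9 in all, since Trpm3 and Ano3 have 2 annotated starts, and the other genes are Trpa1 and Piezo1. They were searched on both strands for the half-site of the cAMP response element (TGACG, in 18.2% of 33469 rat windows of this length), an E-box (CACGTG, 5.59%), a GC box (GGGCGG, 30.5%), a TATA sequence (TATAAA, 12.9%) and a STAT site (TTCNNNGAA, 7.67%), and the matches in each window do not overlap. The half-site letters were in none of the 9 windows, which says only that they are not in these windows. The Ano3 window above held 1 STAT site match and 1 E-box, the Piezo2 window 1 GC box, and the Trpm3 and Trpv2 windows none of the 5 motifs. Of the windows not shown, the second Trpm3 window held 1 STAT site match, and the Trpm8 window 1 STAT site match and 1 TATA sequence. The Ano1 window held 5 GC boxes, and the Trpv1 window and the other Ano3 window none of the 5 motifs. GC content was 68.0% for Trpm3 and 66.8% for Piezo2, against 45.2% for Ano3, 58.4% for Trpv2 and a median of 51.2% over all windows. Trpm3 and Ano3 shared none of these motifs in the windows shown, but the second Trpm3 window and the Ano3 window shown each held 1 STAT site match. Which start these cultures used was not tested. A match is only a description of the letters.

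Trpv1, the capsaicin and heat channel gene, had 0.74, 1.14, 3.56 and 1.00 FPKM in SCCM replicates 1 to 4, 0.35, 0.66, 0.56 and 1.02 FPKM in PGE2 replicates 1 to 4, and 0.45, 0.69 and 0.31 FPKM in untreated replicates 1 to 3. Every SCCM library lay above every untreated library, by a margin of 0.74 against 0.69 FPKM at the closest, and SCCM replicate 3 stood far above the rest. Means were 1.61 ± 1.31 FPKM with SCCM (SD, n = 4), 0.648 ± 0.280 FPKM with PGE2 (SD, n = 4) and 0.483 ± 0.192 FPKM in untreated cultures (SD, n = 3). Differences in the mean were 1.13 FPKM for SCCM minus untreated (exact permutation p = 0.114), 0.164 FPKM for PGE2 minus untreated (exact p = 0.486) and 0.963 FPKM for SCCM minus PGE2 (exact p = 0.0857). Without SCCM replicate 3 the difference was 0.477 FPKM for SCCM minus untreated and 0.3125 FPKM for SCCM minus PGE2. PGE2 minus untreated was 0.04 FPKM without PGE2 replicate 4 and 0.2675 FPKM without untreated replicate 2.

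Trpm8, the gene of the cold and menthol channel, had 0.65, 0.49, 2.17 and 1.31 FPKM with SCCM, 0.38, 0.27, 0.34 and 1.25 FPKM with PGE2 and 0.47, 0.24 and 0.06 FPKM untreated. Again every SCCM library lay above every untreated one, here by 0.49 against 0.47 FPKM at the closest, and PGE2 replicate 4 stood apart within its group. Means were 1.155 ± 0.764 FPKM with SCCM (SD, n = 4), 0.56 ± 0.462 FPKM with PGE2 (SD, n = 4) and 0.257 ± 0.206 FPKM in untreated cultures (SD, n = 3). Differences in the mean were 0.898 FPKM for SCCM minus untreated (exact permutation p = 0.114), 0.303 FPKM for PGE2 minus untreated (exact p = 0.429) and 0.595 FPKM for SCCM minus PGE2 (exact p = 0.171). Without SCCM replicate 3 the difference was 0.56 FPKM for SCCM minus untreated and 0.257 FPKM for SCCM minus PGE2, and without PGE2 replicate 4 PGE2 minus untreated was 0.0733 FPKM. Trpm8 and Trpv1 were both highest in SCCM replicate 3, whereas SCCM replicate 2, close to replicate 3 for Piezo2 and Trpm3, had 0.49 FPKM of Trpm8 and 1.14 FPKM of Trpv1.

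Trpa1, the irritant channel gene, was at the edge of detection. It was listed at 0.03, 0.01, 0.01 and 0.02 FPKM with SCCM, at 0, 0, 0.01 and 0.02 FPKM with PGE2 and at 0 in the 3 untreated libraries, where 0.01 FPKM is the last decimal of the file. SCCM minus untreated had an exact permutation p = 0.0857, or exact p = 0.0286 with median-ratio scaling, which breaks ties between arrangements. Ano1, the calcium-activated chloride channel gene, had 0.18, 0, 0.08 and 0.34 FPKM with SCCM, 0.08, 0.22, 0 and 0 FPKM with PGE2 and 0.11, 0.1 and 0.07 FPKM untreated, and the groups overlapped. Its exact permutation p was 0.657 for SCCM minus untreated and 0.914 for PGE2 minus untreated. No library held 1 FPKM of Ano1, Piezo1 or Trpa1.

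**Figure D5:**
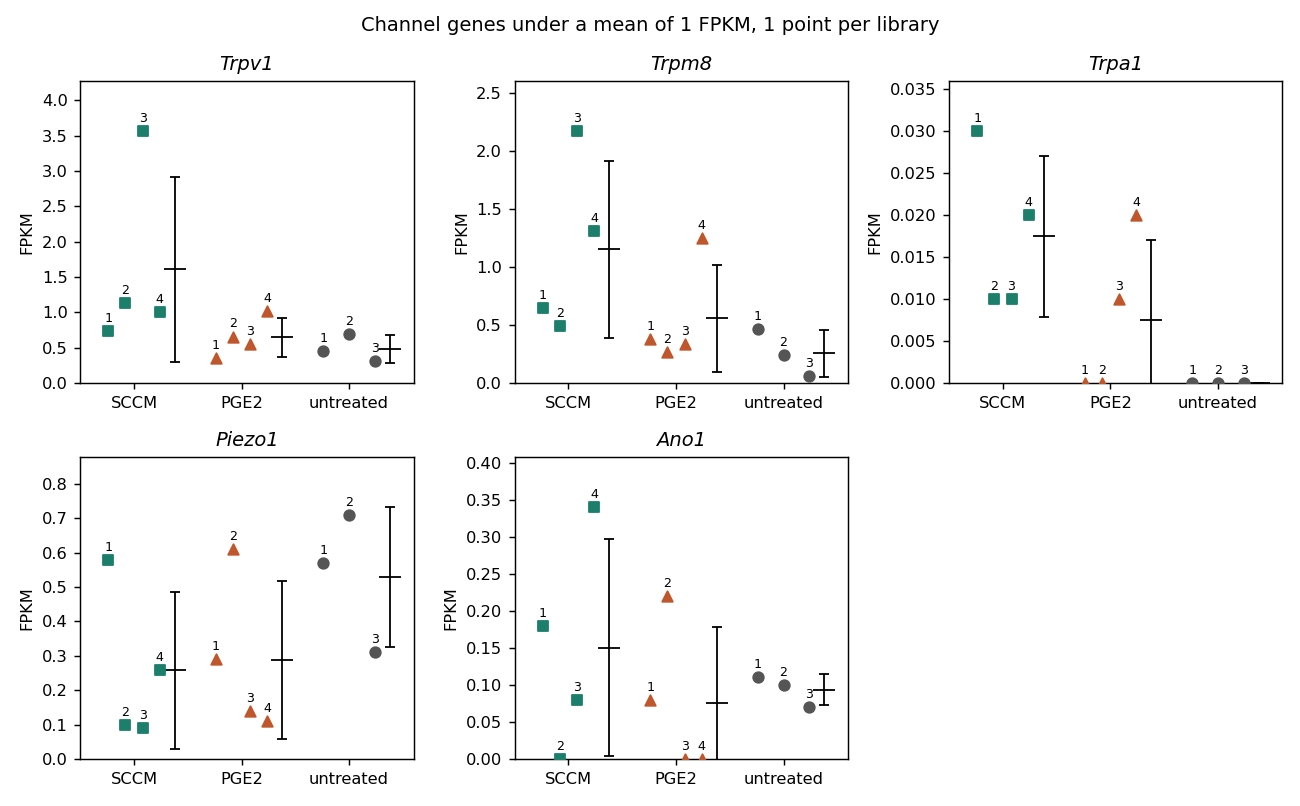
FPKM of the 5 channel genes with a mean under 1 FPKM, laid out with SCCM (squares), PGE2 (triangles) and untreated (circles) from left to right, replicate numbers above the points and bars for mean ± SD, which end at the axis where they would pass below 0. All SCCM libraries of Trpv1 (0.74 to 3.56 FPKM) and Trpm8 (0.49 to 2.17 FPKM) lie above the untreated ones (0.31 to 0.69 and 0.06 to 0.47 FPKM).

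Together, 3 of the 5 low genes, Trpv1, Trpm8 and Trpa1, had SCCM libraries that did not overlap the untreated ones, against 5.35% of the 6724 genes that were above 0 FPKM in some library but averaged under 1 FPKM, and so were left out of the limma fit of all genes. The same 3 did not overlap after median-ratio scaling. For PGE2 minus untreated 0 of 5 did not overlap (3.47% of such genes), and for SCCM minus PGE2 0 of 5 (1.38%). For SCCM minus untreated the closest libraries were 0.74 against 0.69 FPKM for Trpv1 and 0.49 against 0.47 FPKM for Trpm8. For Trpa1 they were 0.01 against 0 FPKM, a step of the last decimal. Among the 12107 genes averaging 1 FPKM or more, the share for SCCM minus untreated was 10.6%. The 5 low genes were chosen with earlier results of these data known, so their count is not read as an excess over these shares. None of the 15 exact tests on deposited values of these 5 genes passed 0.05, and with these group sizes the smallest p the test can give is 0.0286. In a limma fit of 18831 genes without a filter, the SCCM minus untreated log2 change was 0.73 for Trpm8 (SE 0.28, adjusted p = 0.422) and 0.71 for Trpv1 (SE 0.29, adjusted p = 0.422), and those for PGE2 minus untreated were 0.28 and 0.14. These 2 genes are nociceptor and cold-fibre transcripts, and the nociceptor marker Scn10a was also above its untreated range of 12.1 to 31.8 FPKM in all 4 SCCM libraries (32.9 to 101.2 FPKM).

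Other genes of the same families were counted in lists named with earlier results known. Of 22 further TRP channel genes with a row, 13 stayed under 1 FPKM in every library, among them Trpv3 and Trpv4, and 8 were tested. None was called by limma in any comparison, and 6 of 8 had higher means for SCCM minus untreated (median 0.064) and 4 of 8 for PGE2 minus untreated (median 0.023). The most abundant were Mcoln1, a lysosomal TRP channel gene at 8.89 to 18.4 FPKM, Trpc1 at 4.73 to 7.83 FPKM and Trpm2 at 2.47 to 4.77 FPKM. Mcoln1 differed by 0.45 in SCCM (SE 0.18, adjusted p = 0.357) and 0.44 in PGE2 (adjusted p = 0.538) on the log2 scale. Of 8 further anoctamin genes, 4 were under 1 FPKM in every library and 4 were tested, with 3 of 4 higher in both treatments (medians 0.46 and 0.24) and none called. Ano10 (26.9 to 44.2 FPKM) and Ano8 (10.5 to 28.8 FPKM) were at or above the level of Ano3 on average, and Ano6, a lipid scramblase gene, lay at 8.19 to 15.1 FPKM.

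Of 16 further candidate mechanosensitive channel genes with a row, 9 were tested and none was called, with higher means for 4 of 9 in SCCM (median −0.21) and 3 of 9 in PGE2 (median −0.014). Tmem63b, a gene of the osmosensitive OSCA/TMEM63 family, was the most abundant at 24.2 to 53.8 FPKM, and its log2 change was 0.70 in SCCM (SE 0.26, adjusted p = 0.357). Tmem120a, proposed as a pain-related ion channel gene, lay at 14.2 to 37.9 FPKM and Tmc7 at 11.5 to 39.5 FPKM. Among 25 regulators and partners with a row, 21 were tested and none was called, with higher means for 13 of 21 in SCCM (median 0.16) and 12 of 21 in PGE2 (median 0.097). Pirt, a membrane regulator of TRPV1 and TRPM8, measured 282.4 ± 136 FPKM with SCCM (SD, n = 4), 272.3 ± 157 FPKM with PGE2 (SD, n = 4) and 133.0 ± 80.2 FPKM in untreated cultures (SD, n = 3), a log2 change of 1.17 for SCCM minus untreated (SE 0.59, adjusted p = 0.357). It followed the same split, with 398.2 to 416.3 FPKM in the 4 libraries that stand apart and 50.08 to 210.2 FPKM in the other 7. The calmodulin gene Calm2 (1305 to 2229 FPKM) was the most abundant of the list. Stoml3, a partner that tunes Piezo channels in mice, did not pass 0.29 FPKM.

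Markers of cells in which PIEZO1 is better known were mostly under 1 FPKM, but Piezo1 itself lay at 0.09 to 0.71 FPKM. Which cells held the Piezo1 transcript was not tested. Endothelial and mural markers numbered 9 of 11 under 1 FPKM in every library, with summed FPKM of 0.66 to 4.12 with SCCM, 0.68 to 1.45 with PGE2 and 1.10 to 3.54 untreated, and Emcn and Cldn5 at 0 throughout. The others were Tek and Acta2. Tek had 2.06, 0.19, 0.15 and 0.56 FPKM with SCCM, 0.32, 0.68, 0.19 and 0.24 FPKM with PGE2 and 0.94, 1.21 and 0.2 FPKM untreated. Acta2 had 0.82, 1.5, 0.07 and 0.19 FPKM, 0.34, 0.24, 0.77 and 0.14 FPKM, and 1.13, 1.69 and 0.83 FPKM in the same order. Erythroid markers numbered 5 of 6 under 1 FPKM, with sums of 0.67 to 1.33 with SCCM, 0.53 to 2.18 with PGE2 and 1.26 to 2.07 untreated, and Hbb and Hba-a1 at 0 throughout. Fibroblast and meningeal markers numbered 8 of 9 under 1 FPKM (sums of 1.82 to 3.13 with SCCM, 1.80 to 3.80 with PGE2 and 2.36 to 3.28 untreated). Macrophage and immune markers numbered 7 of 8 under 1 FPKM with Ptprc at 0, and the eighth was Cd68, whose sum with them was 0.16 to 14.87 with SCCM, 0.13 to 13.8 with PGE2 and 3.87 to 45.16 untreated. Schwann and satellite glia markers numbered 6 of 13 under 1 FPKM, and their sums, 175.7 to 317.3 with SCCM, 123.0 to 234.1 with PGE2 and 53.8 to 185.1 untreated, came mostly from Ngfr (29.05 to 260.02 FPKM) and Pmp22 (21.6 to 84.95 FPKM), which neurons also express.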

How the data were processed

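Poly-A enriched, stranded libraries were made from RNA with an integrity number above 8, per the labels' protocols. The authors deposited 1 FPKM value per gene and library, to 2 decimals. The genome build is Rnor 6.0 per the submitters' processing notes, and which annotation, aligner and counting program were used is not given in the sources used here. Without read totals no interval or floor for counting error was computed. Lines without values (207489) were left out, 2 names had become dates, and 0 columns belonged to other samples. Relative depth came from 55 library pairs.

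The 12107 genes averaging 1 FPKM or more, 4 channel genes among them, were tested with limma 3.58.1 in R 4.3.3 on log2(FPKM + 1), a scale on which changes of low genes come out too small. A single model of 3 groups (lmFit, contrasts.fit, eBayes with an intensity trend) gave 3 two-sided comparisons with Benjamini-Hochberg adjustment within each, and a call needed an adjusted p under 0.05. The 5 channel genes under the filter had two-sided exact permutation tests of the difference in mean FPKM. The fit was tested on simulated data with normal noise drawn separately for each gene. That simulation held no differences shared by genes within a library, so it does not speak to those described here. The members and lists were chosen with earlier results of these data known. Named genes were the 9 channels, the 3 most abundant tested genes of each family list (1 of which is not reported here), and the 3 genes most alike in pattern per tested channel. Others, such as Trpv3, Trpv4, Stoml3, Scn10a and the markers, were chosen after their values were seen. The settings varied were the filter (none, or 5 FPKM), the pseudocount (0.1), the scaling (median-ratio or quantile), the eBayes options (no trend, robust), the samples fitted (the pair of groups alone, or all but 1 library) and a replicate block, and, added after seeing the data, the 4 libraries apart left out together. The labels do not state that replicate numbers pair cultures. Promoter windows are from RefSeq's table for GRCr8.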

Additional observations from a re-analysis of the deposited data

Results flagged for a closer look

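Trpv1 measured 3.56 FPKM in SCCM replicate 3, whose gap to the next of the 4 SCCM libraries (1.14 FPKM) took up 0.858 of the group's range, above the critical value of 0.829. Trpm8 measured 1.25 FPKM in PGE2 replicate 4, with a gap of 0.888 of the range to the next of the 4 PGE2 libraries (0.38 FPKM). Both were found among 18 groups of 4 values, and chance flags about 1 in 20 such groups.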

How the results depend on the processing

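Over 21 alternatives, none of the 12 log2 changes of Trpv2, Piezo2, Trpm3 and Ano3 passed an adjusted p under 0.05 (0 of 252 values), and the number of these genes called stayed at 0 in each comparison. Directions that turned were as follows. Leaving out SCCM replicates 2 and 3 and PGE2 replicates 3 and 4 together, PGE2 minus untreated was −0.23 for Ano3, −0.19 for Trpm3 and 0.057 FPKM for Ano1. Quantile normalization gave −0.0030 for Ano3 in SCCM minus PGE2. Leaving out 1 library at a time, SCCM minus PGE2 ranged from −0.41 to 0.54 for Ano3, from −0.13 to 0.58 for Piezo2, from −0.096 to 0.83 for Trpm3 and from −0.138 to 0.0775 FPKM for Piezo1, PGE2 minus untreated ranged from −0.23 to 0.47 for Trpv2 and from −0.067 to 0.0067 FPKM for Ano1, and SCCM minus untreated from −0.0067 to 0.107 FPKM for Ano1. The cause was not tested. With the replicate block, SCCM minus untreated was 1.27 for Piezo2, 1.21 for Trpm3, 0.95 for Ano3 and 0.60 for Trpv2. Of 10 same-numbered pairs of libraries, 3 had deviations from their group means that correlated above 0.1 (range −0.506 to 0.493), and 2 of 11 libraries correlated best with one of their own number. Over all genes, SCCM minus PGE2 called 1 gene, Sbno2, and 0 with a pseudocount of 0.1, without a filter or with the replicate block, and 0 to 1 when 1 library was left out. SCCM minus untreated called 0, or 0 to 1 when 1 library was left out and 1 without the 4 libraries together. Genes at an unadjusted p under 0.05 numbered 772 for SCCM minus untreated and 229 for PGE2 minus untreated with the block, against 1648 and 692 without it. With 1 library left out, both counts were lowest when it was untreated replicate 3 (401 and 185), and highest when it was SCCM replicate 1 for SCCM minus untreated (3060) or PGE2 replicate 2 for PGE2 minus untreated (2301). With no read totals, how far depth limits Trpa1, Ano1 and Piezo1 is unknown.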

Other observations

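Tmem100, which encodes a membrane protein described in mice as a partner of TRPA1 and TRPV1, was chosen from the list of regulators after its values were seen. It measured 2.73, 3.72, 2.83 and 1.44 FPKM in SCCM replicates 1 to 4, 0, 0.67, 0.87 and 0.30 FPKM in PGE2 replicates 1 to 4, and 1.78, 0.75 and 0.39 FPKM in untreated replicates 1 to 3. Every SCCM library lay above every PGE2 library. The log2 change of SCCM minus PGE2 was 1.34 (SE 0.29, limma adjusted p = 0.99995), so it was not called over all genes.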
